A study of Mus musculus with 7 samples.

Results

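In the dorsal midbrain of newborn mice, 50 genes were counted more than 3 times as high in each of 3 Brn3b conditional knockout libraries (B1, B7 and B9) as in any of the 4 other libraries, which were the controls A2, A4 and A6 and the knockout B8. They were chosen by their counts per 1000000 counts on genes (CPM): a mean of at least 1 CPM over the 7 libraries, and a lowest value in B1, B7 and B9 above 3 times the highest value in A2, A4, A6 and B8. Genes of chromosomes X and Y were left out. The rule kept 50 of the 16421 genes that reached the mean, which is 0.304%, out of 52636 genes counted. The count rests on single libraries: the same rule kept 95 genes without A2 and 97 without B1. The levels that chose these genes are therefore given below as a description, while their annotation, exon length, base composition and surroundings in the genome were not used by the rule.

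Each library came from the dorsal midbrain of 1 mouse. Controls (A2 and A6 at P4, A4 at P3) were Brn3b flox/+:: En1-Cre, with 1 conditional and 1 wild-type Brn3b allele. Knockouts, called cKO here (B1 and B8 at P4, B7 and B9 at P2), were Brn3b flox/-:: En1-Cre, with 1 conditional and 1 null allele, and GEO's labels give them as homozygotes and the controls as heterozygotes. All mice carried En1-Cre, which drives recombination in the midbrain and hindbrain, and in all of them a recombined conditional allele loses the Brn3b reading frame and expresses human placental alkaline phosphatase from the Brn3b promoter. The libraries were made from polyA-enriched RNA. The targeted gene, Pou4f2 (Brn3b), a POU-domain transcription factor of retinal and midbrain neurons, was at 47.5, 47.0 and 47.2 CPM in A2, A4 and A6. It was at 9.64, 9.19, 11.01 and 11.2 CPM in B1, B7, B8 and B9, so B8 had the level of the other knockouts (log2 fold change -2.16 with a standard error of 0.13, edgeR quasi-likelihood test, adjusted p = 0.000566). The groups did not overlap in Pou4f2.

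The genes below fall into several kinds of annotation. Most protein-coding genes give spliced, polyadenylated mRNA. A processed pseudogene is a copy of a spliced mRNA that was written back into the genome, usually without introns, and its reads can be hard to tell from those of the gene it was copied from. Sense intronic RNAs lie inside an intron of another gene on the same strand, and TEC entries, models that await experimental testing, are mostly unspliced models built from polyadenylated cDNA sequences, often also inside introns. Reads from such models and from unspliced transcripts of the surrounding gene fall on the same strand and cannot be separated by a gene count. The base composition and the length of a transcript are known to affect how efficiently it is recovered in an RNA-seq library.

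Of the 50 genes, 24 were protein-coding, 11 were processed pseudogenes and 2 transcribed processed pseudogenes, 6 were TEC, 3 antisense, 2 lincRNA and 2 sense intronic. Protein-coding genes thus made up 48.0% of the set and 82.1% of all 16421 expressed genes, and pseudogenes made up 26% against 6.35%. The floor is on the mean of all 7 libraries, so low genes such as Gm20689 (control mean 0.570 CPM) reach it only through B1, B7 and B9. The shares in this paragraph are therefore a description. With a floor of 2 CPM, 55% were protein-coding. TEC entries were 12% of the set and 4.37% of the expressed genes. In all, 17 of the 50 (34.0%) had 1 exon, against 13.6% of the expressed genes (22.5% with a floor of 2 CPM on the mean and 22.2% with a 4-fold limit), and 10 (20%) lay inside an intron of a gene on their own strand, against 5.70%. The genes were spread over 18 chromosomes, with at most 5 on any chromosome (chromosome 7).

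To show what kind of sequence these genes hold, 80 bases around the longest run of A are given for the 3 most abundant intronic, single-exon members (GENCODE transcripts, GRCm38, 5′ to 3′ on the gene's strand), with that run in capitals. Gm42664 lies in an intron of Ptbp2 (chr3:119746313-119746392, minus strand), Gm38104 in an intron of Cep170 (chr1:176753054-176753133, minus strand) and Gm43844 in an intron of St7 (chr6:17918765-17918844, plus strand).
Gm42664: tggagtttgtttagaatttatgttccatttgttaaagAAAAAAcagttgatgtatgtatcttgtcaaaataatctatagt
Gm38104: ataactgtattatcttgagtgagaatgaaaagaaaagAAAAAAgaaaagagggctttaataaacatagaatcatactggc
Gm43844: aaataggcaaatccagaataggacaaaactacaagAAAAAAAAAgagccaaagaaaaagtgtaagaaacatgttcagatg
All 3 are poor in G and C, with 36.3%, 28.7% and 40.2% GC over their exons, and their longest runs of A were 6, 6 and 9 bases. For comparison, the same window is given for 2 of the 3 most abundant single-exon noncoding genes of the opposite rule (the other is not reported here), by which the lowest value in A2, A4, A6 and B8 was above 3 times the highest in B1, B7 and B9. That rule kept 41 genes (0.25% of the 16421). The 2 shown are Gm42970 in Ank2 (chr3:127299070-127299149) and Gm42841 in Nbea (chr3:56128970-56129049), both on the minus strand.
Gm42970: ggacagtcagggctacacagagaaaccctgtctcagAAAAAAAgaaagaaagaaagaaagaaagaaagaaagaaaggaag
Gm42841: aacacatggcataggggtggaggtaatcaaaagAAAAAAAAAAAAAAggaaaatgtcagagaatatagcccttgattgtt
The runs of A in these were 7 and 14 bases. Over the whole sets, a run of at least 10 A was present in 10 of the 50 members (20%) and in 22 of the 41 genes of the opposite rule (53.7%), against 19.3% of the expressed genes. The members therefore had such runs about as often as other expressed genes. Among single-exon genes inside a same-strand intron, 1 of 8 members, 19 of 34 genes of the opposite rule (55.9%) and 26.4% of 779 expressed genes held one.

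**Figure D1:**
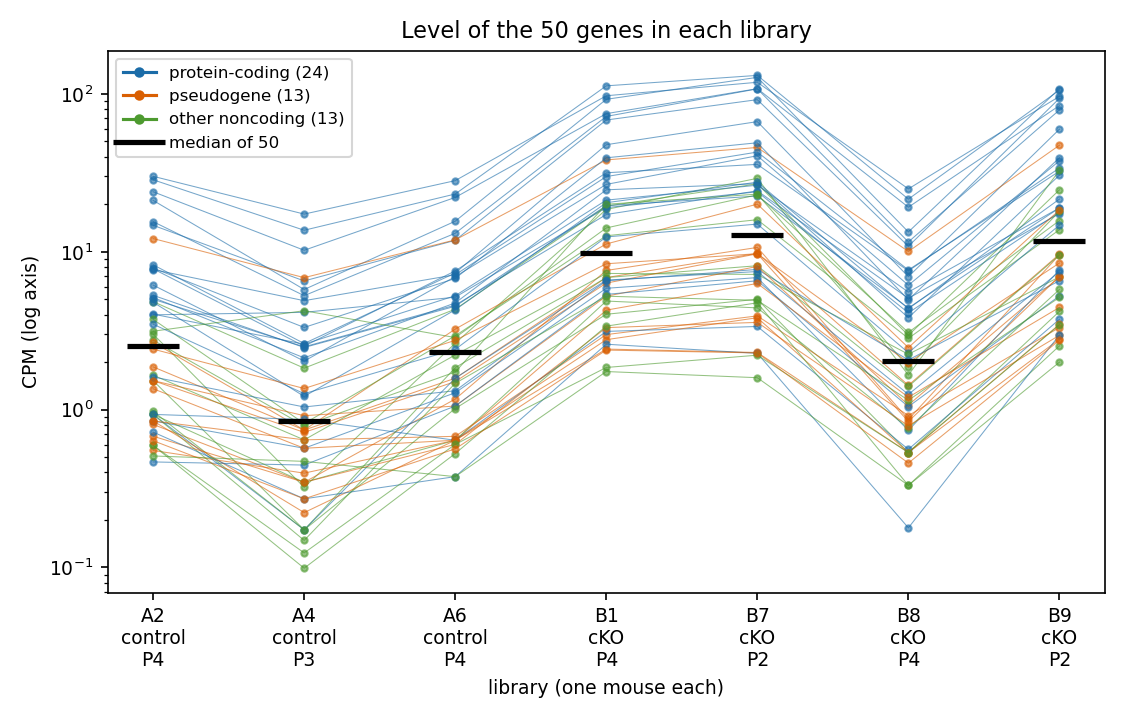
Level of each of the 50 genes in the 7 libraries, in CPM on a log axis; each line is 1 gene, coloured by annotation class, and the black bars are the medians over the 50 genes. The medians lie at 9.80, 12.8 and 11.7 CPM in B1, B7 and B9 and between 0.841 and 2.54 CPM in the other 4 libraries, with A4 lowest.

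The summed level of the 50 genes was 262, 118 and 237 CPM in A2, A4 and A6 and 213 CPM in B8, against 1079, 1412 and 1216 CPM in B1, B7 and B9. B8 thus lay between A4 and A6. The ratio by which the genes were chosen, the lowest of B1, B7 and B9 over the highest of the other 4, ran from 3.06 to 6.54 with a median of 3.64. Just inside the limit were Rbpj-ps3 (3.06), Gm37891 (3.07) and Gm48804 (3.09), and just outside it were the processed pseudogene Gm6493 (2.996), the TEC Gm45221 (2.96) and Tenm3 (2.96), a teneurin of synaptic adhesion.

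Library B8 was inside the range of the 3 controls for 41 of the 50 genes (82.0%), above it for 6 and below it for 3. The median log2 difference of the 50 genes from the control mean was 0.12 in B8, and 0.45, -0.70 and 0.30 in A2, A4 and A6 themselves, so B8 lay between A4 and A6. The rule set an upper limit on B8 and fixed B1, B7 and B9 above the controls, so the 6 genes (12%) with B8 above all controls are also those in which all 4 knockouts were above all 3 controls, and nothing is read from the shares over all expressed genes (64.4% with B8 inside the control range, 18.5% above it, and 6.38% with all 4 knockouts above all controls). By age, the highest sums were those of B7 and B9 at P2, followed by B1 at P4, while B8, A2 and A6 at P4 and A4 at P3 were the lower 4. With age as a covariate the median log2 fold change of the 50 genes between genotypes was 1.95.

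The order within the lower and the higher libraries comes from the values that chose the genes and is given as a description. A4 was the lowest of A2, A4, A6 and B8 in 45 of the 50 genes (90.0%). Among B1, B7 and B9, B7 was the highest in 35 (70.0%) and B1 the lowest in 34 (68.0%). The highest of B1, B7 and B9 exceeded the lowest by 1.05 to 1.87 times (median 1.31), while the highest of the other 4 exceeded the lowest by 1.29 to 10.6 times (median 2.40).

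Between genotypes as labelled and without that covariate, the median log2 fold change of the 50 genes was 2.33 (1.70 to 3.49), against 0.00 for all 21817 genes tested with edgeR. The comparison of knockouts with controls holds B1, B7 and B9 and is the contrast that the rule used, so no call among the 50 is a finding. None of them passed in edgeR (adjusted p = 0.138 for each; 0% of all genes tested were called higher and 0.00458%, which is Pou4f2, in either direction). All 50 had an unadjusted p under 0.05 with the knockouts higher (background 16.7%), and DESeq2 called 48 of 50 (background 7.41%). Without B8, edgeR called 9867 of the 21122 genes tested in place of 1. Of these, 4997 were higher in the knockouts, with all 50 among them. Within the P4 mice alone (A2 and A6 against B1 and B8) the median log2 fold change of the 50 was 1.36 and none passed, and 0 of all 20702 genes tested did.

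The counts on genes were 87572085 in B9 and 67792192 in B7, the deepest libraries and those with the highest sums of the 50 genes, then 40411968 in A4, 39251318 in B8, 28116582 in B1, 26577011 in A6 and 23588248 in A2. With all libraries thinned to the smallest, the rule kept 53 genes, 47 of them members. In B1, B7 and B9 each of the 50 genes had at least 49 counts, and in the other 4 libraries the lowest count was 4. Read pairs aligned to more than 1 place were 9.76%, 8.14% and 8.33% of the pairs counted in B1, B7 and B9 and between 10.6% and 11.1% in the other 4. The part of this share in the genes' levels was not tested.

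The 24 protein-coding members had a summed level of 209, 93.9 and 187 CPM in A2, A4 and A6, of 170 CPM in B8, and of 858, 1120 and 944 CPM in B1, B7 and B9. Per kilobase of exon the most abundant was Gabrb2 (chr11:42419757-42629028), the beta2 subunit of the GABA-A receptor, the chloride channel of fast inhibition, with a mean of 8.62 CPM per kb.

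Gabrb2 was at 21.2, 5.77 and 15.6 CPM in A2, A4 and A6, at 13.3 CPM in B8, and at 92.4, 127 and 108 CPM in B1, B7 and B9. The mean was 14.2 ± 7.79 CPM in controls (SD, n = 3) and 85.3 ± 50.01 CPM in knockouts (SD, n = 4), a log2 fold change of 2.67 with a standard error of 0.71. It was the only member among the 11 expressed GABA-A receptor subunits (9.09%, against 0.304% of all expressed genes), of which 45.5% had every one of B1, B7 and B9 above the other 4 libraries with no limit on the ratio, against 27.4% of all expressed genes. A count of 1 in so short a list gives no result about the group.

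Ncam2 (chr16:81200697-81626828), a homophilic adhesion molecule of axons, was at 28.6, 13.7 and 23.2 CPM in A2, A4 and A6, at 21.6 CPM in B8, and at 112, 131 and 106 CPM in B1, B7 and B9. Dcc, the netrin receptor of axon guidance, was at 7.80, 2.52 and 7.56 CPM in the controls, at 7.57 CPM in B8 and at 31.7, 35.8 and 33.9 CPM in B1, B7 and B9. In both genes B8 lay inside the control range. Xkr4, a multipass membrane protein of the XK family, was at 15.5, 5.27 and 13.1 CPM in the controls, 11.5 CPM in B8 and 72.0, 108 and 79.1 CPM in B1, B7 and B9. Nkain3, an interaction partner of the Na+/K+-ATPase, was at 7.72, 4.90 and 7.15 CPM in controls, 7.67 CPM in B8 and 29.9, 42.8 and 32.4 CPM in the other knockouts. Stxbp5l (tomosyn-2), a brake on vesicle fusion, was among the few genes for which B8, at 5.55 CPM, was above every control (4.03, 2.60 and 5.27 CPM). It was at 21.2, 26.4 and 18.9 CPM in B1, B7 and B9.

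Zfp871 (chr17:32765496-32788287), a C2H2 zinc finger gene, had the highest ratio of the protein-coding members (5.77). It was at 8.27, 2.62 and 7.34 CPM in A2, A4 and A6, at 6.96 CPM in B8, and at 47.7, 66.7 and 59.7 CPM in B1, B7 and B9, with means of 6.08 ± 3.03 CPM in controls (SD, n = 3) and 45.3 ± 26.7 CPM in knockouts (SD, n = 4). Zbtb37, a BTB-domain zinc finger gene with the longest exons of the set (18814 nucleotides), was at 24.0, 10.2 and 22.1 CPM in controls, 19.2 CPM in B8 and 74.97, 108 and 84.3 CPM in the other knockouts. Zfp551 was at 1.04 to 1.61 CPM in controls, 2.06 CPM in B8 and 6.54 to 7.73 CPM in B1, B7 and B9, and Zfp804b at 0.445 to 1.05, 1.04 and 5.25 to 6.55 CPM. Klf12, a transcriptional repressor, and Lcor, a nuclear receptor corepressor, had ratios of 4.27 and 3.40.

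Of 372 expressed genes with a zinc finger symbol, 3 were members (0.806%, against 0.304% of all expressed genes), and 50.3% had B1, B7 and B9 above the other 4, against 27.4%. The zinc finger genes as a group had a median log2 difference from the control mean of 0.29, 0.47 and 0.43 in B1, B7 and B9 and of -0.04 in B8.

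Among the other protein-coding members, Alg10b, which adds the last glucose to the sugar precursor of N-glycosylation, was at 14.7, 6.53 and 11.8 CPM in the controls, 10.8 CPM in B8 and 68.3, 91.9 and 93.7 CPM in B1, B7 and B9, and was the only member among 20 expressed N-glycosylation genes (5%, against 0.304%), of which 30% had B1, B7 and B9 above the other 4, against 27.4%. Atm (chr9:53439149-53536740), the kinase that signals DNA double-strand breaks, was at 5.13, 2.13 and 4.74 CPM in controls, 3.82 CPM in B8 and 24.7, 26.99 and 30.6 CPM in B1, B7 and B9. It was the only member among 22 PI3K-related kinases and DNA damage genes (4.55%, against 0.304%), of which 13 (59.1%) had B1, B7 and B9 above the other 4, against 27.4%. The related kinase Smg1, of nonsense-mediated decay, had a ratio of 2.22, and Trp53 a ratio of 0.617. Lnpep, the insulin-regulated aminopeptidase, was at 6.15, 2.03 and 6.96 CPM in controls, 6.14 CPM in B8 and 26.7, 40.6 and 37.7 CPM in the other knockouts. Fam13b, which has a RhoGAP domain, was at 17.3 to 30.1 CPM in controls, 25.02 CPM in B8 and 96.4 to 118 CPM in B1, B7 and B9, and Lmbrd2, a membrane protein with an LMBR1 domain, at 3.32 to 7.89, 4.97 and 39.4 to 49.0 CPM.

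No member fell in the lists of potassium channels (74 expressed), glutamate receptor subunits (23), ubiquitin-specific proteases (41), solute carriers (265), palmitoyl transferases (19), splicing kinases and SR proteins (25), nuclear and abundant noncoding RNAs (15), cytoplasmic ribosomal proteins (72), clustered histones (5) or mitochondrial genome genes (12). With members at 0.304% of all expressed genes, lists of these sizes need not hold any, and no result about these groups is read from the counts. The ribosomal protein genes, short and abundant, lay the other way: their median log2 difference from the control mean was -0.75, -0.97 and -0.76 in B1, B7 and B9 and -0.09 in B8, and it was 0.20 in A4. No gene of any of these lists passed in edgeR, in which only Pou4f2 was called.

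**Figure D2:**
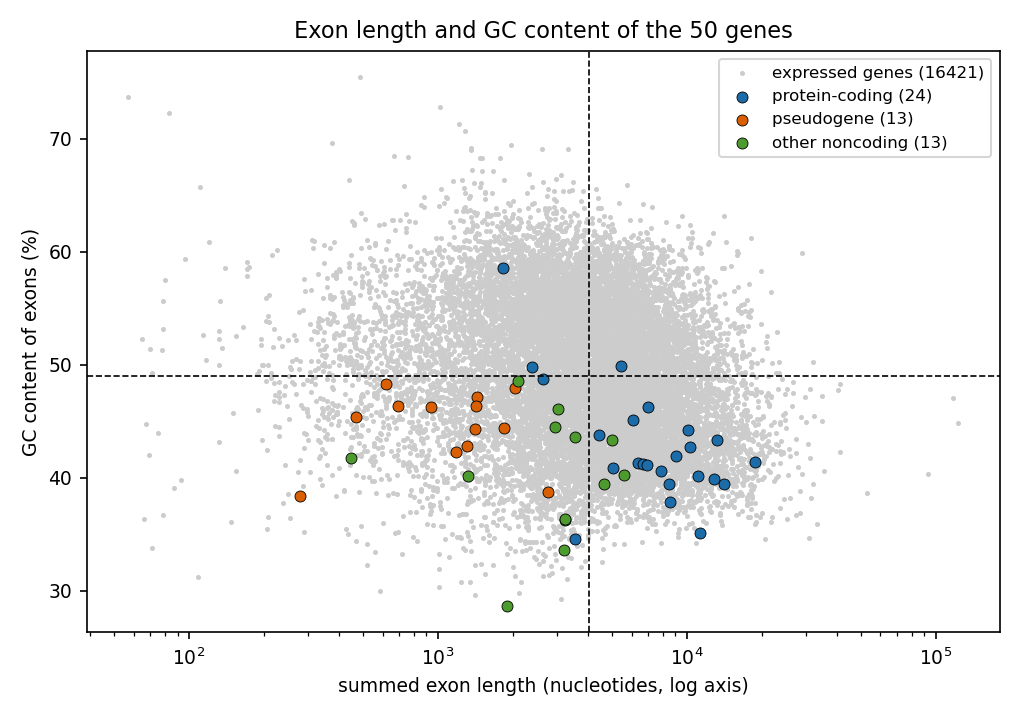
GC content of exons in percent against summed exon length in nucleotides on a log axis; grey points are the 16421 expressed genes, coloured points the 50 genes by class, and dashed lines the medians of the expressed genes. Of the 50 genes, 47 lie below the GC median of 49.0%; the protein-coding members lie mostly to the right of the length median and the pseudogenes to the left.

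The exons of the 50 genes were poor in G and C. Their median GC content was 42.5% (range 28.7% to 58.6%), against 49.0% for the expressed genes, and 47 of 50 (94.0%) were below that value. The exceptions were Klhl11, Adamts3 and Pm20d2, named here after their values were seen. In exon length the classes went apart. Protein-coding members had a median of 7449 nucleotides, against 4596 for expressed protein-coding genes, and 19 of 24 were above that value, while 21 of 24 were below the protein-coding median of GC (41.4% against 49.7%). Their gene bodies spanned a median of 101 kb, against 25.8 kb, and the part of the longest transcript outside the coding sequence was 3392 nucleotides, against 1691.

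The 26 members that are not protein-coding had a median exon length of 1866 nucleotides, close to the 1700.5 nucleotides of expressed genes of that kind, and a GC content of 43.5% against 46.6%. The longest exons belonged to Zbtb37, Lnpep (14144 nucleotides) and Dcc (13171 nucleotides), and the shortest to the pseudogene Gm20689 (279 nucleotides), the antisense gene Gm29237 (448 nucleotides) and the pseudogene Gm45150 (467 nucleotides). These 3 short genes were at 0.173 to 1.02 CPM in the controls and B8 and at 2.30 to 5.001 CPM in B1, B7 and B9. A long transcript was therefore not shared by all members, whereas a GC content below the median nearly was.

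The promoters did not have the low GC of the exons. Of the 24 protein-coding members, 19 were matched to a RefSeq promoter (GRCm38.p6, 300 bases around the start), with a median GC of 63.3% and 21 CpG dinucleotides, against 61.0% and 20.5 for the expressed protein-coding genes matched. The 100 bases before the RefSeq start are given for 3 abundant matched members with CpG in capitals: Ncam2 (chr16:81200597-81200696, plus strand), Gabrb2 (chr11:42420340-42420439, plus strand) and Zbtb37 (chr1:161034850-161034949, minus strand).
Ncam2: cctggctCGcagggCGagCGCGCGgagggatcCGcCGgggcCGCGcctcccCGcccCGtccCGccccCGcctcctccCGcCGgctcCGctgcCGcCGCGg
Gabrb2: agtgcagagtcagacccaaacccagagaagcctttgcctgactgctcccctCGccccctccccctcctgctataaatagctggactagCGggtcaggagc
Zbtb37: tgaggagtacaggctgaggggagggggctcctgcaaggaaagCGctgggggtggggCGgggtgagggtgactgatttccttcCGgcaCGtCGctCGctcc
These windows hold 19, 2 and 6 CpG and have 87%, 60% and 67% GC, while the exons of the same genes have 35.1%, 41.4% and 41.4%. The TATA motif (TATAAA, searched on both strands of the 300-base window) was in 4 of 19 members (21.1%), against 8.48% of the expressed genes matched and 15.7% of all promoters in the table. The octamer ATGCAAAT, searched in the same way, was in none of the 19, against 1.502%.

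**Figure D3:**
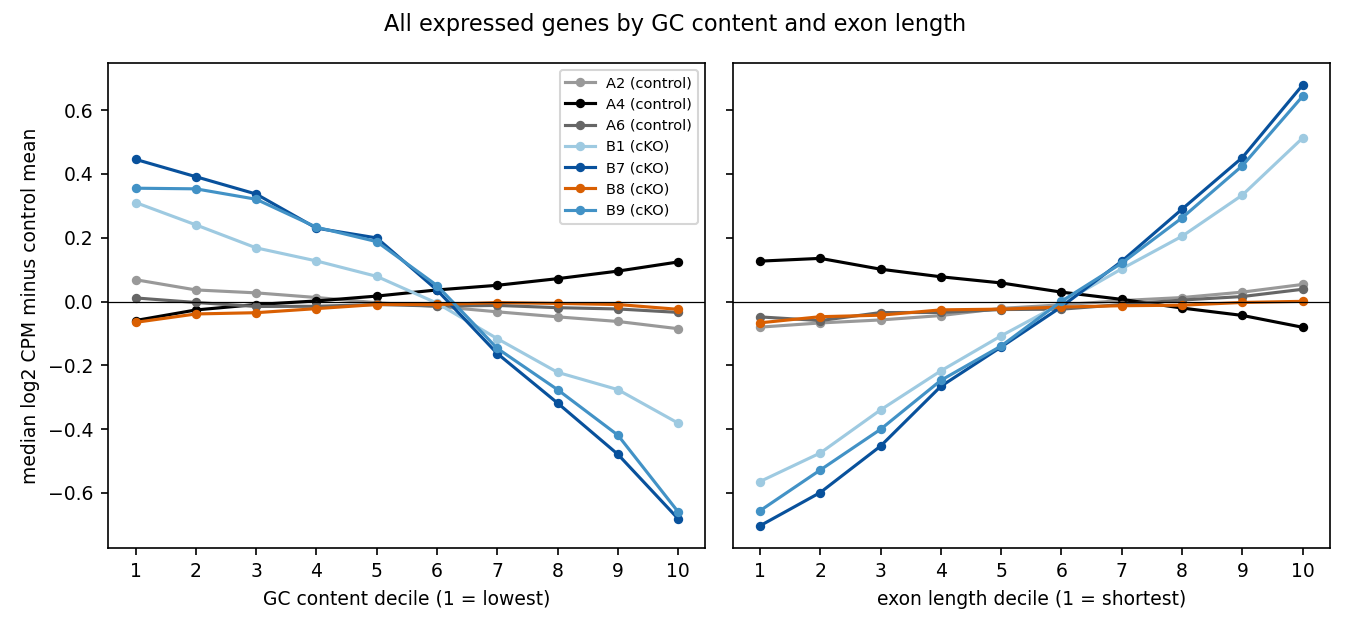
Median log2 CPM minus the control mean over all expressed genes in each decile of exon GC content (left) and exon length (right), with a line for each library. B1, B7 and B9 slope from 0.31 to 0.45 at the lowest GC decile to between -0.38 and -0.68 at the highest, A4 slopes slightly the other way, and B8 stays close to 0.

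The libraries that set the 50 genes apart also differed over all expressed genes by these features. In the decile of genes with the lowest GC, the median log2 difference from the control mean was 0.31, 0.45 and 0.36 in B1, B7 and B9, and in the decile with the highest GC it was -0.38, -0.68 and -0.66. In B8 both values were within 0.07 of 0. By exon length, the shortest decile had medians of -0.56, -0.70 and -0.66 in B1, B7 and B9 and the longest decile 0.51, 0.68 and 0.64. In A4 these were 0.13 and -0.08, of the opposite sign.

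Among 1025 expressed genes with a GC content of at most 43.3% and an exon length of at least 7179 nucleotides, the medians were 0.49, 0.72 and 0.68 in B1, B7 and B9. Of these genes, 10 (0.976%) were members, against 0.304% of all expressed genes. The medians of the 50 genes themselves were set by the rule and are not compared with these. A smooth trend on GC and exon length was then removed from each library. The medians of the 50 genes were 2.44, 2.83 and 2.69 in B1, B7 and B9 and 0.12 in B8, against 2.51, 2.90, 2.75 and 0.12 before. The uncorrected values chose these genes, so the high medians were largely fixed by the rule. The part of the trend in their levels was not tested. Single members moved both ways with the trend as offsets in edgeR. The log2 fold change fell from 2.15 to 1.59 in Ncam2 and from 2.55 to 1.92 in Lnpep. It rose from 1.85 to 2.16 in Gm10557 and from 2.37 to 2.66 in Gm29237. When the rule itself was applied to the corrected values it kept 71 genes, 40 of them members, and their makeup was another: median GC 46.2%, median exon length 1834 nucleotides, 28.2% protein-coding and 50.7% with 1 exon. The share inside a same-strand intron was 21.1%, near the 20% of the 50 genes.

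**Figure D4:**
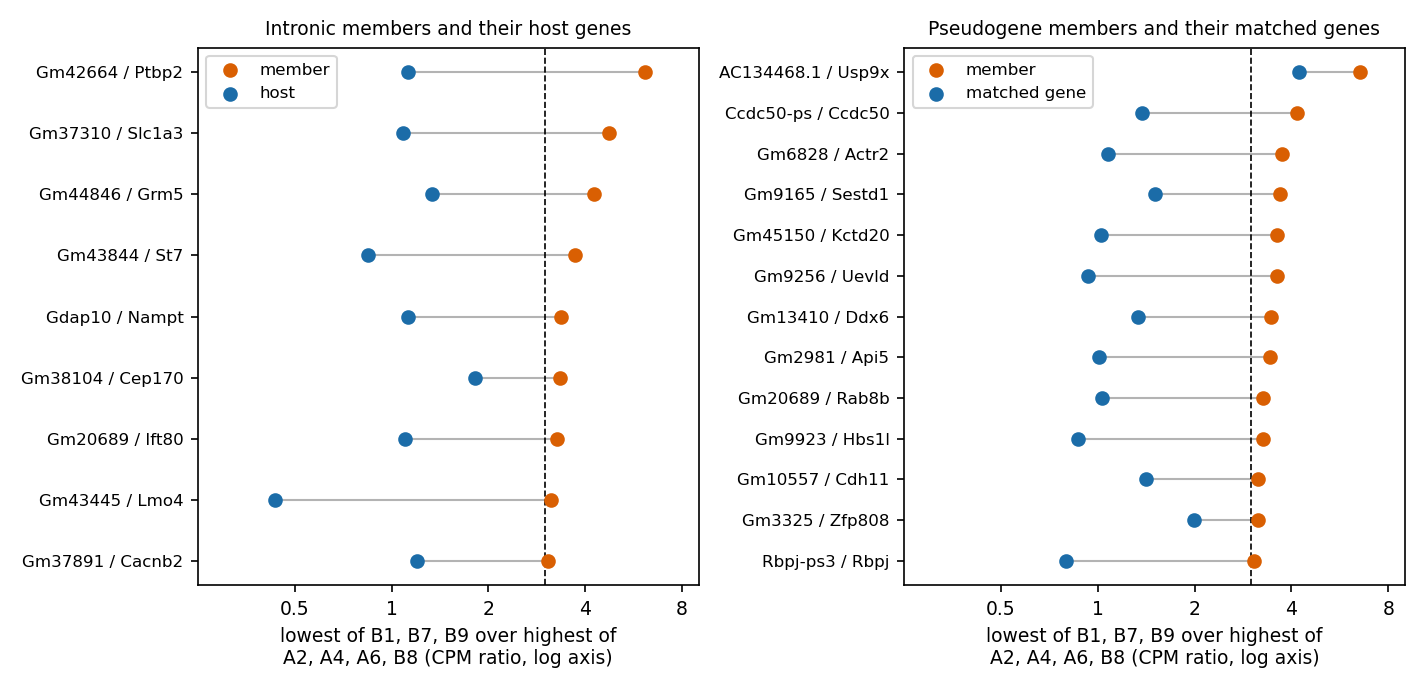
Ratio of the lowest of B1, B7 and B9 to the highest of A2, A4, A6 and B8 in CPM, on a log axis, for 9 intronic members and their host genes (left) and 13 pseudogene members and their best-matching protein-coding genes (right); the dashed line is the 3-fold limit, and Gm9165 with its host Abca16 is left out on the left because that host was at or near 0. Members lie between 3.06 and 6.53, and every partner except Usp9x lies below 2.

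The 10 intronic members had ratios of 3.07 to 6.16, as the rule required. The hosts, which it did not select, had ratios of 0 to 1.81 (median 1.11), given as a description, and no host was a member. A ratio above 1 was found in 7 of the 10 hosts, against 27.4% of all expressed genes, which had a median ratio of 0.742. Gm42664, a sense intronic RNA in Ptbp2, was at 3.01, 0.322 and 2.63 CPM in A2, A4 and A6, at 1.66 CPM in B8, and at 18.5, 29.2 and 32.8 CPM in B1, B7 and B9. It had the largest fold change of the 50 (log2 3.49, standard error 0.98). Its host Ptbp2, a neuronal splicing repressor, was at 205 to 224 CPM in the controls, 208 CPM in B8 and 252, 308 and 352 CPM in B1, B7 and B9.

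Gm38104, a TEC in Cep170, had the lowest GC of the set. It was at 3.14, 4.23 and 2.86 CPM in controls, 3.08 CPM in B8 and 14.2, 23.0 and 15.8 CPM in the other knockouts, and was among the few members in which A4 was not the lowest of its 4 libraries. Its host, a centrosomal protein gene, had the highest ratio of the hosts (1.81), with 135 to 181 CPM in controls, 160 CPM in B8 and 328, 468 and 395 CPM in B1, B7 and B9. Lmo4, a LIM-only transcriptional cofactor that hosts Gm43445, lay the other way, with 112, 167 and 141 CPM in controls, 125 CPM in B8 and 86.3, 72.8 and 85.1 CPM in B1, B7 and B9. Gm37891, a TEC in the calcium channel subunit gene Cacnb2, was at 0.124 to 0.602 CPM in the 4 lower libraries and at 1.85, 2.21 and 3.45 CPM in the others.

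The genes of the opposite rule had another makeup. Of those 41 genes, 28 were TEC (68.3%), 36 lay inside a same-strand intron (87.8%), 37 had 1 exon (90.2%) and 1 was protein-coding. Their GC was as low as that of the members (median 40.3%), but their exons were short (median 1066 nucleotides). Processed pseudogenes were 10 of them (24.4%), so pseudogenes were above their share of expressed genes (6.35%) on both sides. Of 717 expressed TEC entries 6 were members (0.837%) and 28 were of the opposite rule (3.91%), and of 1042 expressed pseudogenes these were 13 (1.25%) and 10 (0.960%). Over all expressed genes the shares were 0.304% and 0.25%. Genes of either set can reach the floor on the mean through their high libraries alone, so these shares are a description. For Gm42841 the values were 11.5, 19.5 and 17.2 CPM in A2, A4 and A6, 13.9 CPM in B8 and 3.77, 2.32 and 2.56 CPM in B1, B7 and B9.

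**Figure D5:**
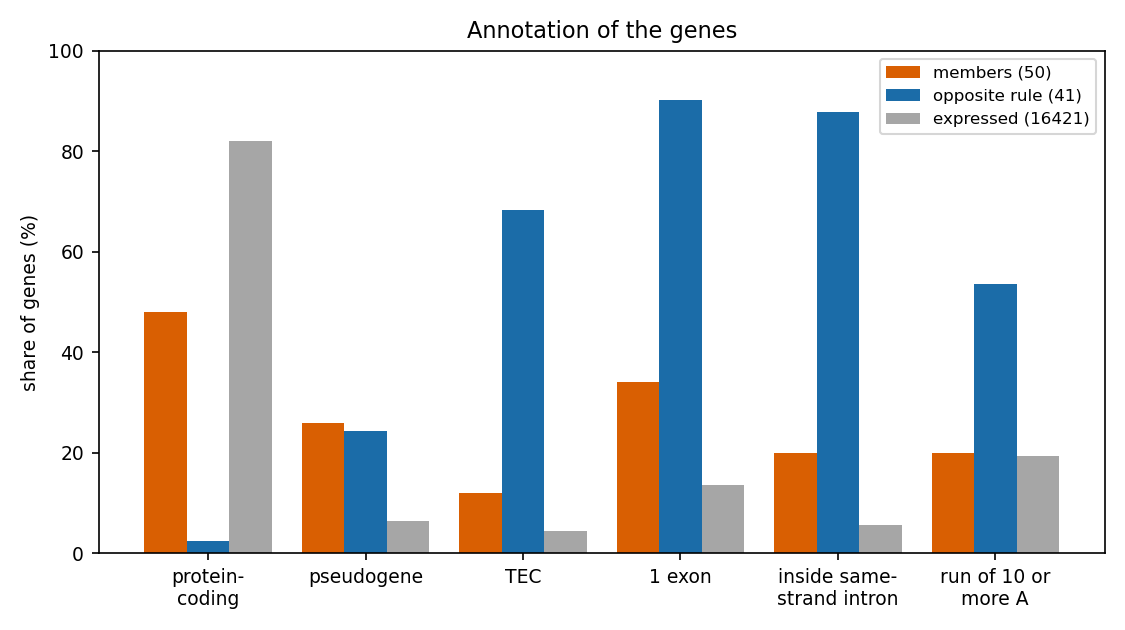
Share of genes in percent by annotation, for the 50 members, the 41 genes of the opposite rule and the 16421 expressed genes. Pseudogenes are 26% of the members and 24.4% of the genes of the opposite rule, while TEC, single-exon and intronic genes and runs of at least 10 A are most frequent in the latter.

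The 13 pseudogene members were aligned to the protein-coding transcripts. Over at least 80% of their length, 12 matched a gene, and the identity over all 13 was 92.6% to 100% (median 96.1%). No matched gene was a member. The 12 on autosomes had ratios of 0.798 to 1.98 (median 1.05), and 9 of them were above 1, against 27.4% of all expressed genes (median 0.742). The pseudogenes were chosen for ratios above 3, so their own ratios of 3.06 to 6.53 are not compared with these. Reads of such copies may be divided between pseudogene and gene, so each level here is uncertain.

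Gm10557, similar to the cadherin gene Cdh11 (96.3% identity over 95.2% of its length), had the highest level per kilobase of the 50 (mean 39.7 CPM per kb). It was at 12.1, 6.85 and 11.9 CPM in controls, 10.04 CPM in B8 and 38.2, 45.8 and 47.3 CPM in B1, B7 and B9. Cdh11 itself was at 53.4 to 62.4 CPM in controls, 63.3 CPM in B8 and 94.1, 98.9 and 89.6 CPM in the other knockouts. Rbpj-ps3, a copy of the Notch effector Rbpj (99.7% identity), was at 2.42, 1.36 and 2.75 CPM in controls, 1.99 CPM in B8 and 8.39, 9.72 and 8.48 CPM in B1, B7 and B9. Rbpj was at 19.7 to 29.2 CPM in controls, 26.7 CPM in B8 and 23.3 to 32.8 CPM in the others, so B1, B7 and B9 overlapped the other 4 libraries in Rbpj. AC134468.1, with a ratio of 6.53, was at 0.346 to 1.17 CPM in controls and B8 and at 7.61, 10.7 and 9.57 CPM in B1, B7 and B9. Its best match, over only 43.6% of its length at 100% identity, was Usp9x, a deubiquitinase gene of chromosome X.

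Usp9x met the limit itself, with 48.8, 22.4 and 44.4 CPM in controls, 38.7 CPM in B8 and 205, 287 and 247 CPM in B1, B7 and B9 (ratio 4.21). It was 1 of 7 genes of chromosome X with the same values that the rule left out, the others being Fam120c, Rbm41, Atp7a, Pabpc5, Uprt and Gm14373, with ratios of 3.56 to 4.95. A further gene, ENSMUSG00000109836.1, had the highest ratio of all (8.02), with 1.29 to 3.22 CPM in the 4 lower libraries and 25.9 to 34.3 CPM in B1, B7 and B9. It is not in the annotation used here, so its chromosome is not known and it was not counted among the 50.

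The other noncoding members included Gm16185, an antisense gene (chr9:97085326-97088610) with the highest ratio of the 50 (6.54). It was at 2.76, 0.792 and 1.73 CPM in controls, 1.86 CPM in B8 and 19.99, 23.2 and 18.03 CPM in B1, B7 and B9. E430024I08Rik, a lincRNA of 9 exons, was at 1.83 to 4.83 CPM in controls, 2.96 CPM in B8 and 19.5, 26.9 and 24.7 CPM in the others. Gm48804, a TEC that overlaps an exon of another gene on its own strand, was at 0.643 to 2.22 CPM in controls, 2.24 CPM in B8 and 6.93 to 7.29 CPM in B1, B7 and B9. Such an overlap was present in 3 of the 50 (6%), against 7.47% of expressed genes. In all, 17 of the 50 (34.0%) overlapped a gene of the opposite strand, against 44.2% of expressed genes. The libraries keep the strand, but the strand option used in counting is not given in the sources used here, so reads of Gm16185 and of the gene opposite cannot be told apart with certainty.

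No member was among the 15 lists of cell type markers. In bulk tissue, fewer cells of a type and less RNA per cell cannot be told apart. The 14 dorsal midbrain markers, all of which were detected, summed to 1283 to 1444 CPM in the controls and B8 and to 1411, 1663 and 1819 CPM in B1, B7 and B9, and the 10 neuronal markers to 6838 to 7327 CPM and 7211, 8160 and 7862 CPM. The 7 hindbrain markers, 2 of them at 0 throughout, reached at most 0.408 CPM. The 8 astrocyte markers were at 2220 to 2510 CPM in controls and B8 and at 2212, 1795 and 1637 CPM in B1, B7 and B9, and the 8 microglial markers at 151 to 214 CPM and 137, 110 and 121 CPM, and no gene of either list was at 0 in all libraries. Thalamic markers (6) were at 512 to 546 CPM and 507, 684 and 728 CPM, oligodendrocyte lineage markers (8) at 394 to 465 CPM and 455, 354 and 326 CPM, and red blood cell markers (7) at 137 to 494 CPM and 181, 59.3 and 56.9 CPM.

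Of these lists, only the astrocyte and microglial sums did not overlap or interleave between B1, B7 and B9 and the other 4 libraries. Among single genes, 27.4% of all expressed genes had B1, B7 and B9 above the other 4, so no result about cell types is read. The astrocyte sums were close (2220 CPM in A6 and 2212 CPM in B1). Slc1a3, a marker of that list, went the other way, with 273 to 302 CPM in the controls and B8 and 327, 339 and 353 CPM in B1, B7 and B9. Other single markers are not given. The remaining lists were cortex and hippocampus (18.1 to 51.6 CPM over the 7 libraries), hypothalamus (3.73 to 7.03 CPM), cerebellum (218 to 292 CPM), dividing cells (54.0 to 102 CPM), endothelium (153 to 229 CPM), meninges and fibroblasts (159 to 360 CPM) and choroid plexus (103 to 130 CPM). The part of the marker levels in the levels of the 50 genes was not tested.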

How the data were processed

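Libraries of 3 control and 4 cKO mice were sequenced, all from dorsal midbrain. The deposited values are raw counts per gene, not normalized, which the authors made by trimming reads, aligning (TopHat2 and Bowtie 2, genome GRCm38.p5, all named in the submitters' processing notes) and counting with HTSeq on GENCODE vM15. Depth was 23588248 to 87572085 counts on genes per library. Entries that name no gene, 31.0% to 38.2% of all pairs counted, were left out of library sizes and tests. CPM divides by the sum of gene counts. Nothing states that the mice of a group came from separate litters, so errors describe the spread between these mice.

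Symbols, biotypes, exon unions and GC were taken from GENCODE vM21 (same build; 52489 of 52636 identifiers matched). Knockouts and controls were compared in R 4.3.3 with edgeR 4.0.16 (filterByExpr with minimum count 10 and minimum total 15, TMM, quasi-likelihood test, Benjamini-Hochberg, threshold 0.05); DESeq2 1.42.0 was an alternative. Scripts were tested on simulated counts. log2 levels added a prior count of 2. GC and length trends were fitted with mgcv 1.9.3, and pseudogenes aligned with BLAST+ 2.17.0. The members, the 14 functional lists and the 15 marker lists were chosen with earlier results of these data known. Genes named are the 10 protein-coding and 5 other members of highest mean CPM, the 5 of highest ratio, 3 on each side of the limit, the 3 longest and 3 shortest, those in functional lists, and Pou4f2; partners, hosts and a few more were added for comparison. Some items are not reported here.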

Additional observations from a re-analysis of the deposited data

Results flagged for a closer look

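Among the 4 cKO libraries, 46 values were examined for a library far from the others, by the gap to the nearest library divided by the range of all 4, and 3 exceeded Dixon's 95% limit. Of the 46, 26 are named members and 1 is the sum of the members, for which the rule held B8 low, so the chance rate of about 1 in 20 groups applies only to the others. Dcc was at 7.57 CPM in B8, against 31.7 to 35.8 CPM in the other 3 cKO libraries. Gm48804 was at 2.24 CPM in B8, against 6.93 to 7.29 CPM in the others. Both genes were chosen for a low level in B8, so these 2 gaps are part of the rule. The summed cerebellar markers were at 292 CPM in B9, against 218 to 231 CPM in the other 3 cKO libraries, and A4 among the controls was at 273 CPM.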

How the results depend on the processing

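The number of genes that the rule kept depended on its own limits and on the libraries: it was 255 with a 2-fold limit, 18 with a 4-fold limit and 51 to 97 when each library was left out in turn (95 without A2 and 97 without B1), and 53 to 71 with other scalings, thinned counts or trends removed, against 50. Calls depended on B8 and on the tool. edgeR called 1 gene, 0 in the P4 mice alone and 1 to 9867 when each library was left out, the highest without B8; DESeq2 called 1994. Of the 50 members, DESeq2 called 48 higher, against 7.41% of all genes tested, and edgeR called 0 to 50 when each library was left out. The highest was again without B8, where 4997 of the 21122 genes tested were called higher. The median log2 fold change of the members was 1.36 to 2.68 over the alternatives, and none of the 26 named members changed sign. The rule had set B1, B7 and B9 above every control, so the sign was largely fixed by it and no stability is read from this. The median level in B8 against the control mean was 0.12, and -0.24 to 0.37 when each control was left out. The features moved where the rule was applied after the GC and length trend had been removed (median exon length 1834 nucleotides, GC 46.2%, 28.2% protein-coding, 50.7% with 1 exon) and, for exon length, with a 4-fold limit (6227 nucleotides); the cause was not tested. Low counts limit members such as Gm44846, with 4 counts in A4. No paired analysis was possible because no replicate number occurs in both groups.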
